A study of Capra hircus with 20 samples.

Results

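The immediate early genes described here are 10 genes of the goat, FOS, FOSB, JUNB, ATF3, EGR1, EGR2, NR4A1, NPAS4, ARC and DUSP1. They were chosen by symbol as genes that respond to neuronal activity and stress, and all 10 were found by their gene identifiers among the 21071 genes with expression values. The values come from the hypothalamus of 20 healthy female Jining grey goats of one farm, with 5 goats at each of 4 ages: 1 day (D1), 2 months (M2), 4 months (M4) and 6 months (M6). No goat received a treatment, and the 4 groups differ by age alone as far as the labels and methods tell. Each goat gave 1 strand-specific library depleted of rRNA, and libraries are named here by stage and replicate number, so that D1-4 is the replicate 4 at D1. All goats were killed on the same day after an electric shock, a step that every group shares, and the time from shock to freezing of each goat was not given in the sources used here. Expression is in FPKM, the number of fragments of a gene scaled for the length of its exons and for the mapped reads of the library.

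Immediate early genes are transcribed within minutes of a stimulus from factors that already wait at their promoters, such as SRF with its ELK partners and CREB, after calcium or MAP kinase signals reach the nucleus. No new protein has to be made first, and the mRNAs are short-lived, so their level in a tissue reflects recent events. In the hypothalamus they are widely used as markers of neurons that were active before death, and they respond to handling, stress, feeding and hormones. Most encode transcription factors that go on to switch on slower genes, while others act directly at the synapse or end the signal that induced them.

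On the ARS1.2 assembly the 10 genes lie on 9 chromosomes. EGR1 (chr7:60658577-60662413) and JUNB (chr7:98107928-98109770) share chromosome 7. FOS is at chr10:16631964-16635429, FOSB at chr18:54127703-54134640 and ATF3 at chr16:69577756-69590608. EGR2 is at chr28:26653568-26660235, NR4A1 at chr5:27519862-27536530 and NPAS4 at chr29:44865244-44870839. ARC is at chr14:80101121-80104483 and DUSP1 at chr20:4601973-4605128. The annotation places 0 other genes over any of them, so an overlapping gene does not share their reads by position.

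The number of reads behind each gene's value is unknown, since the low FPKM values were not whole multiples of a step, and an FPKM of exactly 0 is given here as "listed at 0". Summed FPKM was between 260199 and 377479 per library. The libraries also differed in their marker genes. The 12 hypothalamic marker genes, among them OXT, AVP, HCRT, PMCH and POMC, summed to between 1.04 FPKM in M4-3 and 908 FPKM in M6-5, with a median of 12.3, and RAX was listed at 0 in 15 libraries, NR5A1 in 14, AGRP in 13 and GNRH1 in 12. A set of 5 marker genes of cortex and striatum, NEUROD6, TBR1, PPP1R1B, ADORA2A and DRD1, summed to 434 FPKM in D1-4, 177 in M6-2, 118 in M2-4 and 48.4 in M4-1, against 3.30 to 10.9 in the other 16 libraries. All 5 of these genes had their highest value in D1-4 or M4-1. In bulk tissue, fewer cells of a type and less RNA per cell cannot be told apart.

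The levels of the 10 genes spanned a wide range. By the median over 20 libraries, DUSP1 stood highest with 8.49 FPKM, followed by JUNB with 7.29, FOS with 3.47 and EGR1 with 1.55. Below 1 FPKM were NR4A1 with 0.727, ATF3 with 0.591, FOSB with 0.367 and ARC with 0.306. The lowest were EGR2 with 0.0659 and NPAS4 with 0.0238. Each gene's range over the libraries overlapped that of its neighbours in this order. The lowest values of DUSP1 (4.49 FPKM) and JUNB (4.07 FPKM) were above the highest value of NR4A1 (3.91 FPKM), and also above those of ATF3, FOSB, EGR2 and NPAS4. DUSP1 exceeded 71.6% of all genes by its median and NPAS4 exceeded 21.4%. All 10 passed the filter for testing, at least 0.1 FPKM in at least 5 libraries.

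**Figure D1:**
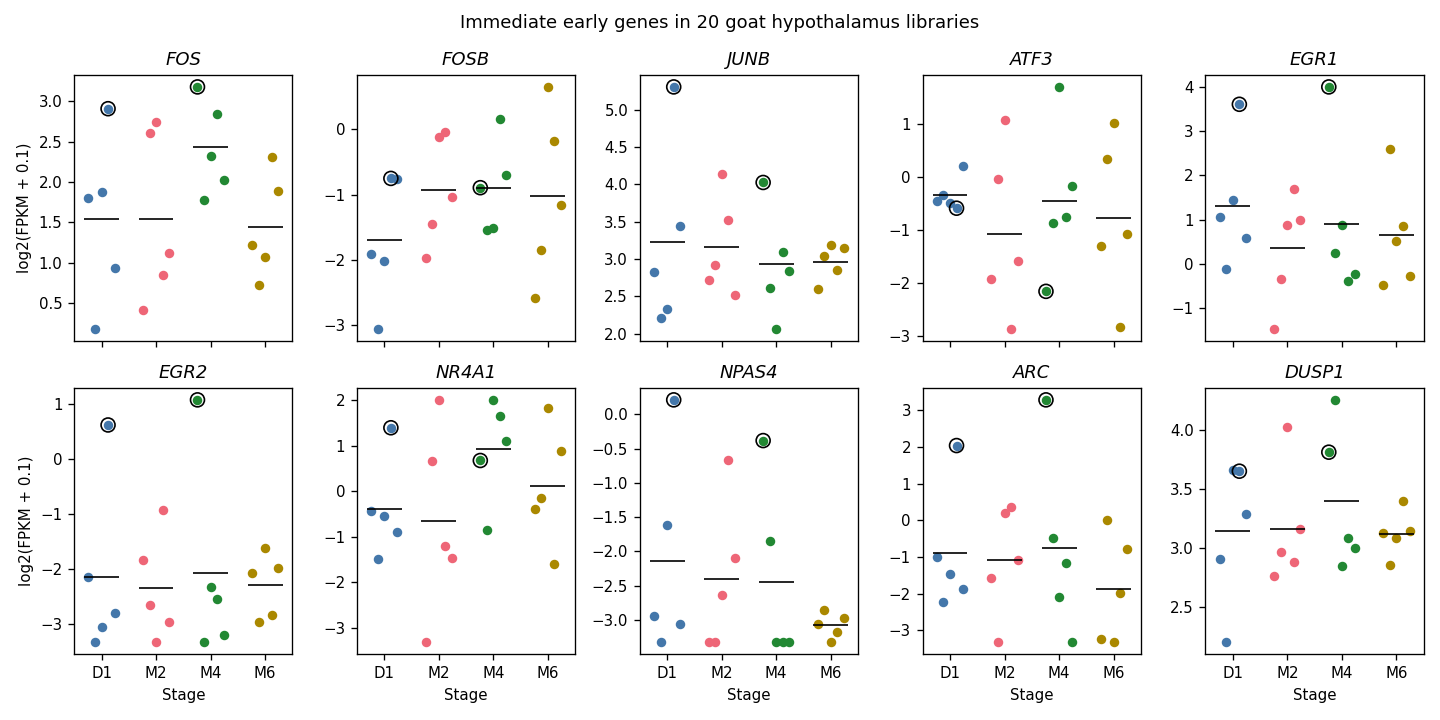
Expression of the 10 immediate early genes as log2(FPKM + 0.1), with 1 panel per gene, the stage on the horizontal axis, 1 point per library in order of replicate number and a line at the stage mean (n = 5). Black rings mark D1-4 and M4-1, which reach 12.1 and 15.9 FPKM for EGR1 while the points of the stages overlap for every gene.

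FOS, FOSB and JUNB encode subunits of AP-1, a transcription factor in which a FOS protein pairs with a JUN protein. FOS was 3.39, 1.03, 3.56, 7.40 and 1.81 FPKM in D1-1 to D1-5, and 1.23, 5.97, 6.58, 1.70 and 2.08 in M2-1 to M2-5. It was 8.94, 3.34, 4.88, 7.04 and 3.98 FPKM at M4, in the same order, and 2.22, 1.56, 2.01, 4.87 and 3.60 at M6. The 5 libraries of M4 were the only group without a value under 3 FPKM, yet they overlapped each of the other stages. The mean was 5.64 ± 2.31 FPKM (SD, n = 5) at M4, against 2.85 ± 1.36 at M6, 3.51 ± 2.55 at M2 and 3.44 ± 2.46 at D1.

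FOSB, whose mRNA also gives rise to the long-lived splice form delta-FosB, was lower than FOS in all 20 libraries. At D1 it was 0.165, 0.0199, 0.148, 0.494 and 0.492 FPKM, and at M2 0.156, 0.268, 0.820, 0.871 and 0.387. At M4 it was 0.439, 0.244, 0.252, 1.01 and 0.518 FPKM, and at M6 0.0665, 0.178, 1.47, 0.785 and 0.348. No D1 library exceeded 0.494 FPKM, a level that 2 libraries of M2, 2 of M4 and 2 of M6 passed. The FPKM values are of whole genes and do not separate the splice forms.

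JUNB, the AP-1 partner that is itself induced, had its highest value, 39.4 FPKM, in D1-4, where the other D1 libraries were between 4.51 and 10.8. At M2 it was 6.46, 7.46, 17.6, 11.3 and 5.61 FPKM, and at M4 16.2, 6.0, 4.07, 8.43 and 7.09. M6 was the most even stage, with values between 5.97 and 8.97 FPKM. Single libraries thus stood high at 3 stages, in D1-4, M2-3 and M4-1.

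ATF3, a stress-induced factor of the ATF/CREB family that represses many of its targets, followed other libraries. It was 0.630, 0.697, 0.615, 0.567 and 1.06 FPKM at D1, with the lowest value in D1-4. The M2 libraries had 0.164, 0.878, 2.02, 0.0369 and 0.235 FPKM and the M4 libraries 0.125, 0.452, 3.16, 0.495 and 0.788. In the M6 libraries it was 0.306, 1.18, 1.92, 0.0410 and 0.376 FPKM. The highest libraries were D1-5, M2-3, M4-3 and M6-3, and M4-1, which was highest for FOS and EGR1, was the lowest of M4 for ATF3.

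EGR1 and EGR2 encode zinc finger factors, EGR1 being a broad reporter of neuronal activity and EGR2 also the factor that drives myelination in Schwann cells. EGR1 was 1.98, 0.827, 2.61, 12.1 and 1.39 FPKM at D1 and 0.26, 0.689, 1.75, 3.13 and 1.90 at M2. It was 15.9, 1.08, 1.73, 0.667 and 0.760 FPKM at M4 and 0.621, 5.96, 1.33, 1.70 and 0.733 at M6. The single libraries D1-4 and M4-1 held 64.0% and 79.0% of the summed EGR1 of their stages. EGR2 was 1.43 FPKM in D1-4 and 2.00 FPKM in M4-1, against at most 0.427 FPKM in the other 18 libraries, and it was listed at 0 in D1-2, M2-3 and M4-2. For EGR2 these 2 libraries held 88.2% and 91.7% of the stage sums.

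NR4A1, an orphan nuclear receptor that neuronal activity, cAMP and stress induce, was 0.633, 0.257, 0.582, 2.52 and 0.434 FPKM at D1. At M2 it was listed at 0 in M2-1 and was 1.49, 3.89, 0.334 and 0.259 FPKM in the others. At M4 it was 1.49, 0.453, 3.91, 3.04 and 2.05 FPKM, and at M6 0.656, 0.797, 3.46, 0.227 and 1.74. Its stage medians were 0.582, 0.334, 2.05 and 0.797 FPKM in order of age, and M4-3, M2-3 and M6-3 were the 3 highest libraries.

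NPAS4, a neuron-specific factor that responds to calcium entry and shapes inhibitory synapses, was listed at 0 in 7 libraries. At D1 it was 1.06 FPKM in D1-4 and 0.226 in D1-3, with at most 0.0302 in the rest. At M2 it was 0.529 FPKM in M2-4, 0.134 in M2-5 and 0.0618 in M2-3, and it was listed at 0 in M2-1 and M2-2. At M4 it was 0.666 FPKM in M4-1, 0.178 in M4-2 and listed at 0 in the other 3. No M6 library exceeded 0.0387 FPKM, so any difference of M6 from the other stages rests on a few libraries near the lower end of the measured values.

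ARC, a synaptic protein that drives the removal of AMPA receptors and whose mRNA travels to dendrites, was 0.403, 0.115, 0.265, 4.02 and 0.173 FPKM at D1. At M2 it was 0.234, 0, 1.05, 1.19 and 0.371 FPKM, where 0 is a library listed at 0. At M4 it was 9.66, 0.618, 0.133 and 0.347 FPKM and listed at 0 in M4-5, and at M6 it was 0.00609, 0.901, 0.154 and 0.481 FPKM and listed at 0 in M6-3. M4-1 held 89.8% of the summed ARC at M4 and D1-4 held 80.8% at D1.

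DUSP1, a phosphatase that inactivates MAP kinases and so ends the signal that induces many of these genes, was the most even of the 10. It was 7.39, 4.49, 12.5, 12.4 and 9.62 FPKM at D1, and 6.66, 7.69, 16.1, 7.24 and 8.84 at M2. At M4 it was 13.9, 19.0, 7.09, 8.38 and 7.89 FPKM, and at M6 it stayed between 7.13 and 10.4. Its mean was 11.2 ± 5.08 FPKM (SD, n = 5) in the M4 libraries, 9.31 ± 3.89 in those of M2, 9.28 ± 3.42 in those of D1 and 8.65 ± 1.19 in those of M6. DUSP1 is also induced by glucocorticoids through the glucocorticoid receptor.

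To ask whether the immediate early genes change between birth and 6 months, the 6 pairs of stages were compared with limma on log2(FPKM + 0.1) over all 16771 genes that passed the filter, in 1 fit. A gene was called at a Benjamini-Hochberg adjusted p under 0.05 with a log2 fold change of 1 or more in either direction. By limma 0 of the 10 genes were called in M2 vs. D1, M4 vs. M2, M6 vs. M4, M4 vs. D1, M6 vs. D1 or M6 vs. M2, and 0 of the 10 had an unadjusted p under 0.05 in any of the 6. The share of all genes called was 0.0% in M2 vs. D1, M6 vs. M4, M4 vs. M2 and M6 vs. M2, 0.0537% in M4 vs. D1 and 0.00596% in M6 vs. D1. The number of all genes called depended on the setting, and with library quality weights it was 148 in M2 vs. D1, 65 in M4 vs. D1 and 95 in M6 vs. D1. Without D1-4 and M4-1 it was 20, 18 and 32, and 0 of the 10 genes were among those called under either setting. M2 vs. D1 had 15.6% of all genes at an unadjusted p under 0.05. That share was 8.71% for M4 vs. D1 and 8.68% for M4 vs. M2, and 7.41% for M6 vs. D1, 6.87% for M6 vs. M4 and 6.14% for M6 vs. M2. An F test over the 4 stages called 0 of the 10 by limma, with 0.00596% of all genes called and 10.4% at an unadjusted p under 0.05, where 0 of the 10 genes were.

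The intervals around these differences are wide for most of the genes. The lowest p belonged to FOS in M6 vs. M4, with a log2 fold change of -0.98 (95% confidence interval -2.04 to 0.07, adjusted p = 0.745 by limma). FOS in M4 vs. D1 was 0.89 (-0.17 to 1.94, adjusted p = 0.654 by limma) and in M4 vs. M2 0.88 (-0.17 to 1.94, adjusted p = 0.625). NR4A1 had the largest fold change, 1.58 in M4 vs. M2 (-0.17 to 3.33, adjusted p = 0.590 by limma), and it was 1.32 in M4 vs. D1 (-0.43 to 3.06, adjusted p = 0.71). These comparisons share the M4 libraries, and the 4 values with the lowest p all involve them. In M2 vs. D1, EGR1 was -0.96 (-2.69 to 0.77, adjusted p = 0.596 by limma), ATF3 -0.74 (-2.34 to 0.87) and FOSB 0.78 (-0.48 to 2.03). With the mapping rate of the library as a covariate, ATF3 was -2.48 and EGR1 -0.36 in M2 vs. D1, and neither was called. With this covariate NR4A1 was 0.78 in M4 vs. D1 and 1.82 in M4 vs. M2. NR4A1 also went from -0.27 to -1.04 in M2 vs. D1 and from 0.51 to -0.03 in M6 vs. D1 with it. NPAS4 was -0.93 in M6 vs. D1 (-2.39 to 0.53, adjusted p = 0.769 by limma). ARC in M6 vs. M4 was -1.11 with an interval from -3.33 to 1.11, the widest of these. DUSP1 was the best bounded, with fold changes between -0.28 and 0.26 and no interval that reached 1 in either direction. P-values measure only the spread between these libraries. Each goat gave 1 library, so differences of goat, dissection and library preparation cannot be told apart in it.

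**Figure D2:**
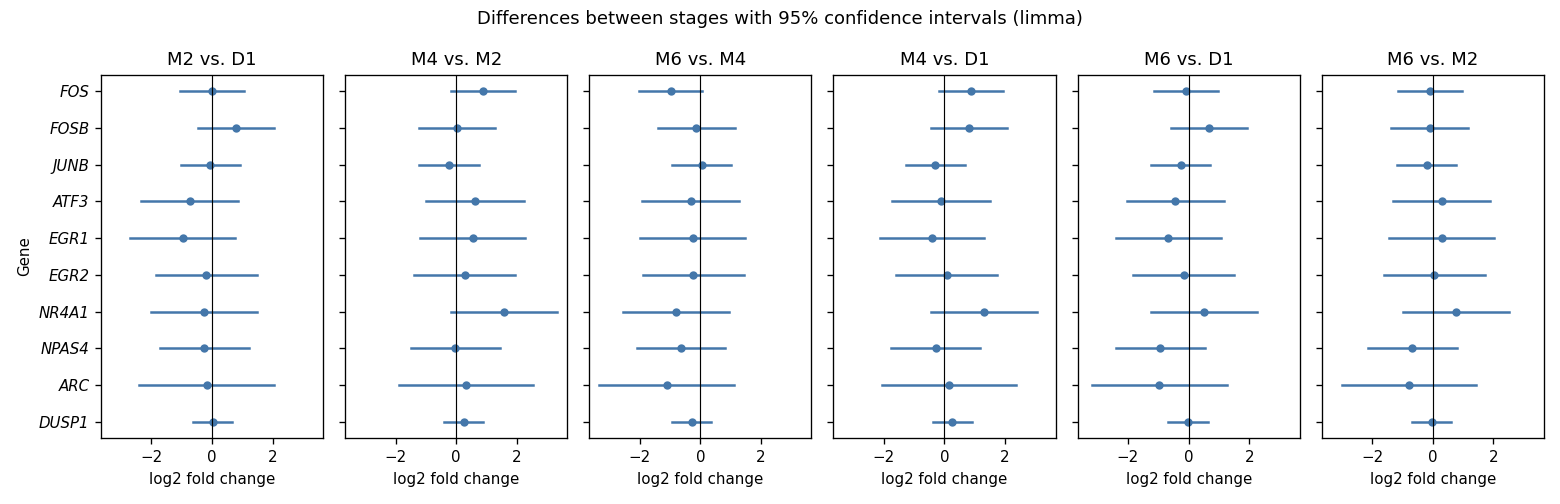
Differences between stages for the 10 genes, with 1 panel per comparison, the log2 fold change on the horizontal axis and bars for the 95% confidence interval from limma (n = 5 per stage). All bars cross 0, those of DUSP1 are the shortest, and FOS in M6 vs. M4 (-0.98) lies nearest to excluding 0.

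Several differences of EGR1, ARC and EGR2 moved when D1-4 and M4-1 were left out. Without both libraries, EGR1 in M2 vs. D1 went from -0.96 to -0.39 and in M4 vs. M2 from 0.55 to -0.22, while in M4 vs. D1 it went from -0.41 to -0.61. ARC in M4 vs. M2 went from 0.33 to -0.68, and EGR2 in M6 vs. M4 from -0.23 to 0.55 and in M2 vs. D1 from -0.20 to 0.49. Leaving out M4-1 alone took ARC in M6 vs. M4 from -1.11 to -0.10. FOS kept a fold change of 1.04 in M4 vs. D1 and NR4A1 one of 1.82, with 0 genes of the 10 called. Leaving out the 2 libraries was decided after their values were seen.

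The share of the variation that lay between stages was small for most of these genes. Means of 5 libraries also differ by chance, so such a share is not all an effect of stage. The share of the sum of squares that lay between stages had a median of 6.66% over the 10 genes, against 18.2% over all genes tested, and it was 21.4% for FOS, 17.9% for NR4A1 and 0.877% for EGR2. The within-stage SD on the log2(FPKM + 0.1) scale was 1.84 for ARC, 1.44 for NR4A1, 1.44 for EGR1, 1.33 for EGR2 and 1.31 for ATF3. It was 1.13 for NPAS4, 0.97 for FOSB, 0.86 for FOS, 0.81 for JUNB and 0.51 for DUSP1. The median over the 10 was 1.22, against 0.57 over all genes tested, and 0.89 without D1-4 and M4-1. ARC varied more than 98.7% of the genes tested and DUSP1 more than 42.7%. Genes of low FPKM vary more on this scale, so each gene was also set beside genes within 0.5 of its mean log2 value. There ARC exceeded 95.1% of 1203 genes, EGR1 94.8% of 2091, NR4A1 88.5% of 1519 and JUNB 88.5% of 2787, while FOSB exceeded 34.6% of 1199. Without D1-4 and M4-1 the SD fell to 1.28 for ARC, 1.02 for EGR1, 0.68 for EGR2 and 0.50 for JUNB, and was 1.45 for NR4A1 and 1.3 for ATF3.

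**Figure D3:**
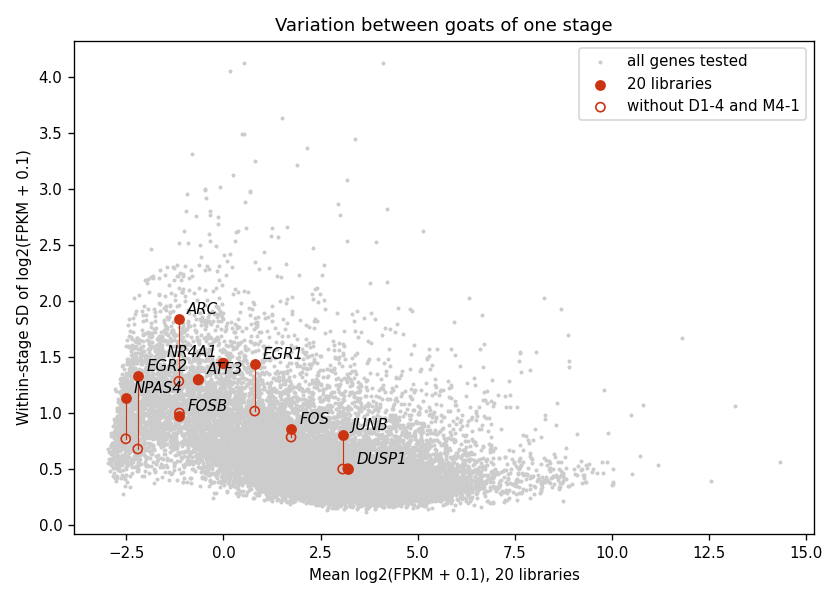
Within-stage SD of log2(FPKM + 0.1) against the mean of log2(FPKM + 0.1) over 20 libraries, for all genes tested (grey) and the 10 immediate early genes (filled red). Open circles give the SD without D1-4 and M4-1 at the same mean, and show the SD of ARC (1.84 to 1.28) and EGR2 (1.33 to 0.68) falling while that of NR4A1 and ATF3 hardly moved.

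Across libraries the genes fell into different patterns. D1-4 was the highest of its stage for 8 of the 10 genes and M4-1 for 6, while D1-2 was the lowest of its stage for 9 and M2-1 for 6. M2-3 and M2-4 were each the highest of M2 for 5 genes, and M6-3 was the highest of M6 for 5. Pearson's r was calculated between each pair of genes after the stage means were removed, over 20 libraries, and is given as a description, since all genes of a library share its depth and its tissue makeup. The 45 pairs had a median r of 0.386, against 0.0169 for pairs of all genes tested, and 39 were positive. All 6 negative pairs included ATF3. Without D1-4 and M4-1 the median was 0.175, and the number of pairs with r over 0.6 went from 12 to 2. Over 20 libraries, 3.84% of all pairs of tested genes had an r over 0.6.

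EGR1, ARC and NPAS4 were the genes that moved most closely together. Their r was 0.814 for EGR1 with ARC, 0.812 for EGR1 with NPAS4 and 0.809 for NPAS4 with ARC, and the values without the 2 libraries were 0.570, 0.588 and 0.577. EGR2 had an r of 0.624 with EGR1, which became -0.097 without them, so the high r of EGR2 rested on those 2 libraries. Other pairs did not rest on them. ATF3 and NR4A1 had an r of 0.655, and 0.754 without the 2 libraries, but 0.508 without M4-3 and M2-3, the libraries farthest from the median of ATF3. FOS and NR4A1 had 0.610 and 0.579, and FOSB and JUNB had 0.582 and 0.690. ATF3 with NPAS4 gave the lowest value, -0.451, and -0.394 without the 2 libraries. FOS with EGR1, which are both used as markers of recent activity, had 0.386, and 0.071 without the 2 libraries. M6-2 shows this in a single goat, with the highest EGR1 of M6 (5.96 FPKM) and the lowest FOS (1.56 FPKM).

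**Figure D4:**
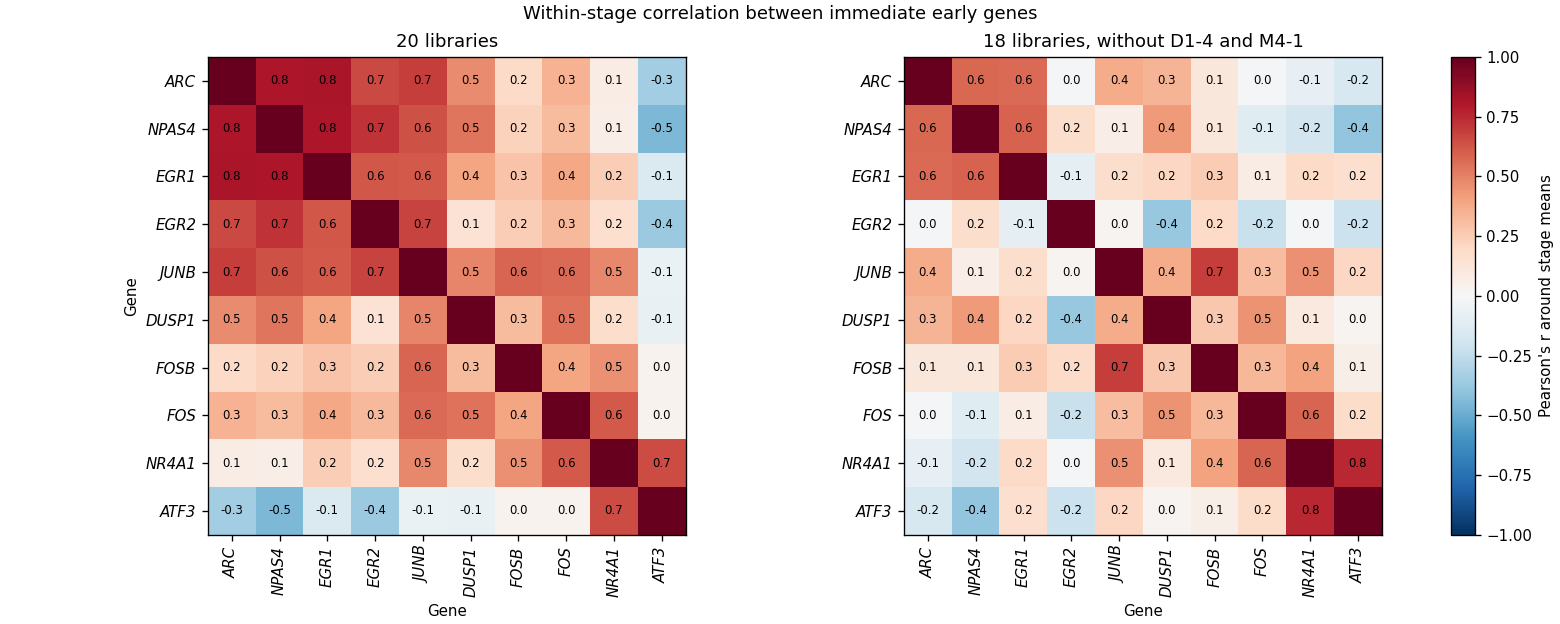
Pearson's r between pairs of the 10 genes after removal of stage means, over 20 libraries (left) and over 18 without D1-4 and M4-1 (right), with colour and number giving r. The block of ARC, NPAS4 and EGR1 keeps values near 0.6 on the right, EGR2 loses its high values, and ATF3 with NR4A1 has 0.7 on the left and 0.8 on the right.

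The library with the highest cortex and striatum marker sum of its stage, D1-4, M2-4, M4-1 or M6-2, was the highest of its stage for EGR1, ARC and NPAS4 at all 4 stages. It was so for EGR2 at 3 stages, for FOS, FOSB and JUNB at 2, for NR4A1 at 1 and for ATF3 and DUSP1 at 0. EGR1 was between 3.13 and 15.9 FPKM in these 4 libraries and between 0.26 and 2.61 in the other 16, without overlap. ARC was between 0.901 and 9.66 FPKM in the 4 and between 0 and 1.05 in the others, and NPAS4 between 0.0387 and 1.06 against 0 and 0.226. FOS overlapped throughout, with 1.56 to 8.94 FPKM against 1.03 to 7.04. PPP1R1B and DRD1 were each higher in all 4 libraries than in any of the other 16, whereas NEUROD6 and ADORA2A were near 0 in some of the 4. TBR1 overlapped too, with 0.129 to 7.74 FPKM in the 4 against 0 to 3.96 in the other 16. The neuron marker sum of 8 genes was also the highest of its stage in each of these libraries, from 982.5 to 2696 FPKM. The astrocyte marker sum was the lowest of its stage in each of them, from 717 to 1499 FPKM. The oligodendrocyte marker sum was the lowest of its stage in D1-4 (919 FPKM) and M4-1 (431 FPKM). It was next to lowest in M2-4 (2376 FPKM) and M6-2 (5492 FPKM). The part of these marker levels in the EGR1, ARC and NPAS4 values was not tested.

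ATF3 stood at the other end of the neuron marker sum. Its highest library had the lowest sum of the stage at D1 (D1-5, 814 FPKM), M4 (M4-3, 749 FPKM) and M6 (M6-3, 81.6 FPKM) and the next to lowest at M2 (M2-3, 491 FPKM). Its lowest library had the highest sum at D1, M2 and M4 (D1-4 with 1577 FPKM, M2-4 with 1324 and M4-1 with 2696), and the next to highest at M6 (M6-4 with 960 FPKM). M2-1, with the lowest neuron marker sum of M2 (212 FPKM), had a low ATF3 of 0.164 FPKM and went against this order. NR4A1 shared 3 of the 4 highest libraries with ATF3, M2-3, M4-3 and M6-3, but its highest library at D1 was D1-4. M2-1, M2-3 and M6-3 are the 3 libraries with the lowest mapping rates. With the mapping rate as a covariate, ATF3 went from -0.74 to -2.48 in M2 vs. D1, from -0.12 to -1.33 in M4 vs. D1 and from -0.44 to -1.64 in M6 vs. D1, with 0 of these called by limma. The part of the neuron marker sum in the ATF3 values was not tested.

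**Figure D5:**
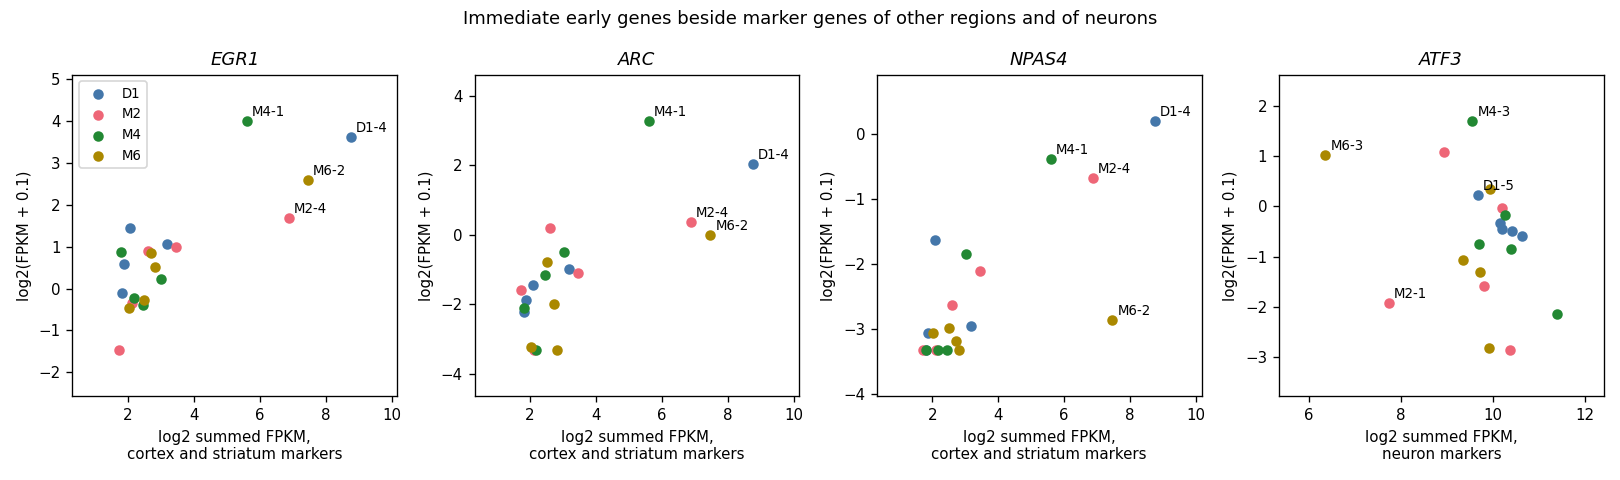
EGR1, ARC and NPAS4 as log2(FPKM + 0.1) against the log2 of the summed FPKM of 5 cortex and striatum markers, and ATF3 against that of 8 neuron markers, with 1 point per library coloured by stage. Labels name the library with the highest cortex and striatum sum of each stage in the first 3 panels, where EGR1 is between 3.13 and 15.9 FPKM, and the library with the lowest neuron sum in the last.

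Other genes of the same response gave 0 calls in the 6 comparisons and in the F test, by limma. Their counts at an unadjusted p under 0.05 stand beside the shares of all genes given above, which ran from 6.14% in M6 vs. M2 to 15.6% in M2 vs. D1. Of 22 other rapid-response transcription factors tested, among them FOSL2, JUN, EGR3 and KLF4, 1 gene had an unadjusted p under 0.05 in M2 vs. D1 and 1 in M6 vs. D1. That gene was ATF4, the central factor of the integrated stress response, with a log2 fold change of -0.41 in both and adjusted p of 0.264 and 0.633. Of 24 effectors and feedback inhibitors, 2 were at an unadjusted p under 0.05 in M2 vs. D1, both lower, against 15.6% of all genes. There were 3 in M6 vs. M4, 0 in M6 vs. D1 and 2 in each of the remaining comparisons, and the median log2 fold change of the list for M2 vs. D1 was -0.43. The 17 activity-regulated neuronal genes tested had 4 at an unadjusted p under 0.05 in M6 vs. M4, against 6.87% of all genes. Of these, 3 were lower and 1 higher, with NRN1 at -2.60 (adjusted p = 0.700 by limma). The activity-regulated neuronal genes had 0 in each of the other 5 comparisons. Of 8 neuron markers, 6 were also lower in M6 vs. M4, with a median log2 fold change of -1.09 over the 8. Of 29 upstream kinases and factors, 4 had an unadjusted p under 0.05 in M2 vs. D1, against 15.6% of all genes. Among them HDAC5, a deacetylase that represses MEF2 targets, had 0.83 (adjusted p = 0.174 by limma).

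Among genes of stress pathways, the glucocorticoid-responsive genes came nearest to a call. Of 12 tested, 3 had an unadjusted p under 0.05 in M2 vs. D1, all lower, against 15.6% of all genes, and KLF9, a transcription factor that glucocorticoid and thyroid hormones induce, had a log2 fold change of -1.40 (adjusted p = 0.104 by limma). KLF9 was then 0.90 in M4 vs. M2 and 1.02 in M6 vs. M2 (adjusted p = 0.499 and 0.746 by limma). In M6 vs. M4 all 12 fold changes were above 0, against 9043 of all 16771 genes tested. Of the 12, 3 were at an unadjusted p under 0.05, against 6.87% of all genes. All 10 hypothalamus, 6 oligodendrocyte and 5 microglia markers tested were also above 0 in M6 vs. M4, while 2 neuron markers were above 0 and 6 below. FKBP5, a chaperone that restrains the glucocorticoid receptor, had -1.39 in M4 vs. D1 (adjusted p = 0.366 by limma). Of 15 heat shock genes 1 had an unadjusted p under 0.05 in M2 vs. D1, against 15.6% of all genes. This was the mitochondrial chaperonin HSPD1 with -0.77 (adjusted p = 0.164 by limma). In M4 vs. M2, M6 vs. M4 and M6 vs. M2 the list had 1 each, all higher, against 8.68%, 6.87% and 6.14% of all genes. Of 11 integrated stress response genes 2 were at an unadjusted p under 0.05 in M6 vs. D1, both lower, against 7.41% of all genes. Among them GADD45A, which responds to DNA damage, had -1.42 (adjusted p = 0.271 by limma). The list also had 2 in M2 vs. D1 (15.6% of all genes), 1 in M4 vs. D1 (8.71%) and 1 in M6 vs. M4 (6.87%), all lower. Of 13 hypoxia genes 1 was at an unadjusted p under 0.05 in M2 vs. D1, against 15.6% of all genes, EGLN3 with -0.93 (adjusted p = 0.298 by limma). The hypoxia genes had 2 in M4 vs. D1, both higher, against 8.71% of all genes. Among them VEGFA, which induces vessel growth, had 0.67 (adjusted p = 0.391 by limma). In M6 vs. M4 the hypoxia genes had 1 higher and 1 lower, against 6.87% of all genes, with ANKRD37 at 1.41 (adjusted p = 0.700 by limma).

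The genes named next are those of each list with the 2 highest and the 1 lowest r with the mean of the 10. The r is across libraries within stages and is a description. The median r of whole lists was 0.123 for the factors, 0.289 for effectors and feedback inhibitors and 0.150 for upstream kinases and factors. It was 0.0323 for activity-regulated neuronal genes, between -0.311 and 0.0880 for the stress lists, and -0.0191 for all genes tested. Cortex and striatum markers had a median of 0.511, and 0.283 without D1-4 and M4-1, and oligodendrocyte markers -0.473 and 0.131. By r over 20 libraries, and then without D1-4 and M4-1, NR4A3 had 0.716 and 0.426 and EGR3 0.71 and 0.327 among the factors, and KLF4 was lowest with -0.347 and 0.004. DUSP6, the feedback phosphatase of ERK, had 0.726 and 0.428, PTGS2, the inducible cyclooxygenase, 0.712 and 0.504, and NFKBIA -0.358 and 0.070. HOMER1, a scaffold of the postsynapse, had 0.558 and -0.109, RHEB 0.543 and 0.477, and RASD1, the lowest, -0.191 and 0.046. SRF, the factor at the promoters of many immediate early genes, had 0.728 and 0.590, CAMKK2 0.564 and 0.244, and ELK3 -0.552 and -0.335. Of the heat shock genes, HSPH1 had 0.509 and 0.148, HSPA8 0.486 and 0.328, and HSPB8 -0.599 and 0.150. Of the integrated stress response genes, PPP1R15A had 0.535 and 0.667, CHAC1 0.259 and 0.252, and CEBPG -0.416 and -0.326. Of the hypoxia genes, LDH-A, lactate dehydrogenase A, had 0.655 and 0.118, CA9 0.580 and 0.304, and EGLN3 -0.552 and 0.031. KLF9 with 0.167 and 0.275 and CDKN1A with 0.13 and -0.207 were the highest of the glucocorticoid-responsive list over 20 libraries, and PDK4 the lowest with -0.523 and -0.117. EGR3 was between 2.30 and 9.69 FPKM in D1-4, M2-4, M4-1 and M6-2 and at most 0.730 FPKM in the other 16 libraries, the same separation as EGR1.

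Of all genes tested outside the 10, those most like their mean were MRAS (0.853), THOP1 (0.833), TWF2 (0.816), C25H16orf59 (0.810), TESC (0.807), IER5L (0.807), ADAMTS8 (0.806), GIT1 (0.800), BRMS1 (0.795) and PKIG (0.764), with r over 20 libraries. Without D1-4 and M4-1, THOP1 had 0.835 and TWF2 0.760, and the others, MRAS with 0.608 among them, were between 0.521 (TESC and PKIG) and 0.654 (ADAMTS8). The most opposed were TRPM3 (-0.867), LOC102174867 (-0.856) and EPS8 (-0.852). For single genes, chosen after their values were seen, EGR4 was nearest to NPAS4 (0.921), LMO7 (0.916) and EGR3 (0.909) to EGR1, DUSP6 (0.912) to ARC, ANXA11 (0.864) to JUNB and MGLL (0.826) to DUSP1. Without D1-4 and M4-1 these values were 0.798, 0.854, 0.805, 0.792, 0.715 and 0.810, in the same order. For the other members, R3HDM4 was nearest to EGR2 (0.888, and 0.627 without the 2 libraries) and DPH2 to FOS (0.832 and 0.815). LOC108633334 was nearest to ATF3 (0.821 and 0.822), TMEM72 to NR4A1 (0.779 and 0.795) and MRPL14 to FOSB (0.777 and 0.805).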

How the data were processed

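The members and the gene lists were chosen with earlier results of these data known. The authors trimmed reads with fastp, aligned them with HISAT2 2.0.5 to the goat genome ARS1.2, assembled transcripts with StringTie 1.3.3b and deposited FPKM values per gene, which are the values used here. FPKM depends on the mapped reads and on the exon model, and no read counts could be recovered, since 10.6% of the low ratios between libraries lay within 0.05 of a whole number. Symbols and positions were taken from the RefSeq annotation of ARS1.2.

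Values were transformed to log2(FPKM + 0.1), a scale that understates changes of low genes, and limma 3.58.1 (R 4.3.3) was run on the 16771 genes that reached 0.1 FPKM in 5 or more libraries, with the stage as the group, a variance trend and Benjamini-Hochberg adjustment over all genes. The fit was tested on simulated data. All 10 members are described. From each other list the genes called in any comparison, and those with the 2 highest and the 1 lowest r with the scaled mean of the members, were named. Genes named for their p in a list, the nearest genes of single members, and the split by cortex and striatum markers were chosen after the values were seen. Alternatives were other pseudocounts, filters, scalings and variance models, library weights, a block for the replicate number, mapping rate as a covariate, and leaving out libraries. Other calculations used Python 3.11.15. A few marker genes of the cortex and striatum list are not reported here, and the sums leave them out.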

Additional observations from a re-analysis of the deposited data

Results flagged for a closer look

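In 15 of the 40 groups of 5 libraries (10 genes at 4 stages), the highest library lay farther from the next than Dixon's 95% critical value of 0.71 of the range allows. In normal values chance flags about 1 in 20 groups, and FPKM is skewed, so that figure is a guide only. On log2(FPKM + 0.1), chosen after the values were seen, 3 of the 15 stayed over 0.71, namely EGR1 and EGR2 in M4-1 and ARC in D1-4. The genes share libraries, so these groups are not independent, and 10 of the 15 were D1-4 or M4-1. D1-4 stood apart for JUNB (39.4 FPKM), EGR1 (12.1), EGR2 (1.43), NR4A1 (2.52), NPAS4 (1.06) and ARC (4.02). M4-1 stood apart for EGR1 (15.9 FPKM), EGR2 (2.00), NPAS4 (0.666) and ARC (9.66). M6-2 stood apart for EGR1 (5.96 FPKM) and M2-4 for NPAS4 (0.529), and both have the highest cortex and striatum marker sum of their stage, as D1-4 and M4-1 do. ATF3 stood apart in D1-5 (1.06 FPKM) and M4-3 (3.16), which have the lowest neuron marker sum of their stages. DUSP1 stood apart in M2-3 (16.1 FPKM), where FOS, JUNB, NR4A1 and ATF3 were also the highest of M2. The part of these marker levels in the values was not tested.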

How the results depend on the processing

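Across the 35 alternatives, 0 of the 10 genes were called in any comparison or in the F test by limma, and the smallest adjusted p was 0.211, for NR4A1 in M4 vs. D1 with library quality weights. Of the 60 fold changes, 20 kept their direction under all alternatives run for them and 40 changed sign under at least 1, of which 5 were at least 0.5 in absolute size. FOS in M4 vs. D1, M4 vs. M2 and M6 vs. M4 and NR4A1 in M4 vs. M2 and M4 vs. D1 were among those that kept it. The mapping rate as a covariate changed 11 signs and took ATF3 in M2 vs. D1 from -0.74 to -2.48. Counts of all genes called ran from 0 to 148 in M2 vs. D1 and from 0 to 170 in the F test. Both were highest with library quality weights, where 16771 genes were tested. The median within-stage SD, 1.22, was 0.618 with a pseudocount of 1 and 1.60 with 0.01, which follows from how the pseudocount compresses low values. It was 0.895 without D1-4 and M4-1 together, and 1.02 (without M4-1) to 1.26 without single libraries, with 1.04 without D1-4. The median r, 0.386, was 0.26 (without D1-4) to 0.472 (without M2-4). Replicate numbers did not pair the libraries, with a median correlation of deviations between -0.0981 and 0.0692 per number. The replicate block gave 0 calls among the 10. It cannot change a fold change or its sign, since every stage holds the same replicate numbers, so its fold changes say nothing about pairing. The unknown read counts of single genes limit ARC, EGR2 and NPAS4 most, which were listed at 0 in 3, 3 and 7 libraries.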
